A study of Mus musculus with 26 samples.

Results

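Of the 3495 domains that the boundary list of mouse embryonic stem cells (ESCs) defines, 300 were at least 1.5 Mb long. A domain here is the stretch between the end of one boundary and the start of the next on the same chromosome, and these 300 were selected on that length alone, so their length is a description and not a finding. Micro-C, which maps contacts between chromosome segments after cutting chromatin with micrococcal nuclease, was applied to cells in the G1 phase. All libraries came from a C57BL/6J line derived from Bruce-4 ESCs in which the cohesin subunit RAD21 carries a degradable dTAG tag, so the vehicle-treated cells carry the tag too. In ESCs, kept in serum, 2i and LIF, the groups were 500 nM dTAG (6 libraries), which degrades RAD21, 20 µM A485 (6 libraries), which inhibits p300 and CBP, acetyltransferases of histones, and 0.05% v/v DMSO as vehicle (6 libraries). Epiblast-like cells (EpiLCs), a later state that ESCs reach in culture, received dTAG (4 libraries) or DMSO (4 libraries). The growth protocol of replicates 4 to 6 of the ESC dTAG and A485 groups mentions EpiLCs although their cell type is given as ESC. None of those 6 libraries is used below.

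The boundaries come from the 6 DMSO-treated ESC libraries pooled into 1 list, in mm10 coordinates, counted here from 1. That list has no replicates and no score, the number of contacts behind it is unknown, and comparisons between treatments or cell types were not analysed here. It holds no expression values, so the cell type could not be set against marker genes. Domains of 1 map share their libraries and are not replicates of a condition. No test was therefore made, and the 95% intervals given below, Wilson intervals for shares and binomial order-statistic intervals for medians, cover counting error only. They take each gene or domain as a separate draw, so they are too narrow for families whose genes lie side by side. A gene was counted in the domain that holds its midpoint.

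Contact domains are chromosome segments whose parts touch each other more often than they touch the neighbouring segments, and boundaries are the places where this preference changes. Cohesin is known to draw chromatin into loops, and the DNA-binding protein CTCF to halt it at many boundaries. In mammals, stretches of a megabase or more with few genes, called gene deserts, often lie around developmental and neuronal genes, and some large gene families, such as the odorant receptors, lie in tandem arrays.

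Sequences from both ends of the range of gene content are shown first. The first 3 promoters belong to genes that start inside a boundary next to one of the 15 longest domains. They run from 250 bases before to 50 bases after the annotated start, in RefSeq's GRCm38.p6 assembly, and capitals mark CG dinucleotides, the sites of vertebrate DNA methylation. Zscan18 (chr7:12803589-12803888, minus strand) and Zfp329 (chr7:12818811-12819110, minus strand) encode zinc finger proteins and start in the boundary to the right of a domain of 5.825 Mb. Snrpd2 (chr7:19149588-19149887, plus strand) encodes a core protein of the spliceosome and starts in the boundary to the left of a domain of 5.225 Mb.
Zscan18: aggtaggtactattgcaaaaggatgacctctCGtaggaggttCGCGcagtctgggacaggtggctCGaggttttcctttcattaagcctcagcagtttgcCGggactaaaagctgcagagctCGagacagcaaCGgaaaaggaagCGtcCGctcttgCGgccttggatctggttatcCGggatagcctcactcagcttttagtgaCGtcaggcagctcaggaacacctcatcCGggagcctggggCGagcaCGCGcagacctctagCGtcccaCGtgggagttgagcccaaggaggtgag
Zfp329: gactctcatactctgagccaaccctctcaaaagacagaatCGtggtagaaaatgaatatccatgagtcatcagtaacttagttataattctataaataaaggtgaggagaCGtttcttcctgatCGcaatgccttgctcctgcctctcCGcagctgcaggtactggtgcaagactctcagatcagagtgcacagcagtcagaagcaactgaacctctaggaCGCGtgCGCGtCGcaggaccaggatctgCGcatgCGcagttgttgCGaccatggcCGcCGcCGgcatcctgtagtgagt
Snrpd2: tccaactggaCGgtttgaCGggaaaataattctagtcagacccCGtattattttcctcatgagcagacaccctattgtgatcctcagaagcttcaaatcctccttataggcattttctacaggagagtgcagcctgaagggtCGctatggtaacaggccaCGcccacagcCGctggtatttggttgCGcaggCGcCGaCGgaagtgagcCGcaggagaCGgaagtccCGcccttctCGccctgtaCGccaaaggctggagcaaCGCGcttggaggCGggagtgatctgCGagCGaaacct

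The next 3 promoters belong to the only protein-coding gene of a long domain, taken from the longest such domains and leaving out genes with predicted-style symbols. Lrrc4c (chr2:96317919-96318218, plus strand) encodes a synaptic adhesion protein that binds netrin G and lies in a domain of 4.2 Mb. Nova1 (chr12:46818718-46819017, minus strand) encodes a neuronal splicing regulator and lies in a domain of 4.15 Mb. The Nova1 window lies inside the gene, which ends at position 46819480, so the start it is built on is not the gene's outer end. Luzp2 (chr7:54834995-54835294, plus strand) encodes a leucine zipper protein and lies in a domain of 3.725 Mb.
Lrrc4c: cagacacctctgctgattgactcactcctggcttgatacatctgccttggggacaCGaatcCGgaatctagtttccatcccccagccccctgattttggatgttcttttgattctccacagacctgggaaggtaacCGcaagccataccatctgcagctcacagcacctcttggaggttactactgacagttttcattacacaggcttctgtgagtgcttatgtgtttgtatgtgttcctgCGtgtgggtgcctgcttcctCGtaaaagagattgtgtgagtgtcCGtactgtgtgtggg
Nova1: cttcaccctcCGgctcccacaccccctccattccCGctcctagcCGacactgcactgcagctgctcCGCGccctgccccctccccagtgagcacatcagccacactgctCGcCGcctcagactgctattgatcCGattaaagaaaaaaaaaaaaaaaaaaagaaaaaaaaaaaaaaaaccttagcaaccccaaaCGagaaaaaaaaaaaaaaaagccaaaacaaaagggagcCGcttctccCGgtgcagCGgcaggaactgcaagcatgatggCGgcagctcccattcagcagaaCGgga
Luzp2: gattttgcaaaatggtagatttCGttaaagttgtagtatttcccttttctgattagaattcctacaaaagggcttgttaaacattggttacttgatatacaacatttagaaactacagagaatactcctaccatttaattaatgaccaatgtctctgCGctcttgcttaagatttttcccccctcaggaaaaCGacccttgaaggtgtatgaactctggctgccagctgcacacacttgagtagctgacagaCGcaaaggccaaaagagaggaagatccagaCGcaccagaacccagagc
The 3 boundary promoters held 18, 15 and 20 CG dinucleotides, in the order shown. The 3 promoters inside held 6, 14 and 5. The letters TATAAA, read on either strand, occurred in the Zfp329 window and in none of the other 5, beside 13.4% of all 17274 protein-coding genes with a promoter window.

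MicroRNAs are short RNAs that pair with messenger RNAs through a seed, bases 2 to 8, shown in capitals. One long domain without a protein-coding gene, chr14:112925001-115050000, holds the 6 microRNA genes of the Mir17 cluster, known for promoting proliferation. They span 0.836 kb, and the last of them ends 5.49 kb from the domain's right edge. Mature forms of the cluster are printed by seed. The members miR-17-5p and miR-20a-5p share a seed, as do miR-19a-3p and miR-19b-3p, and the seed of miR-18a-5p differs from that of the first pair.
mmu-miR-17-5p: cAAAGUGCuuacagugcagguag
mmu-miR-20a-5p: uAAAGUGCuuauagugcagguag
mmu-miR-18a-5p: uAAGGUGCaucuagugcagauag
mmu-miR-19a-3p: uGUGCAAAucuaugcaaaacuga
mmu-miR-19b-3p: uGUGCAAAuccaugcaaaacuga
mmu-miR-92a-3p: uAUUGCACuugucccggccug
The domain with the most microRNA genes, chr7:59225001-62175000, holds 13 genes of the Mir344 family within 402 kb. In this family 6 mature 5p names carry the seed GUCAGGC, of which 3 are shown.
mmu-miR-344-5p: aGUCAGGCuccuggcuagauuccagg
mmu-miR-344b-5p: aGUCAGGCuccuggcuaaaguuc
mmu-miR-344c-5p: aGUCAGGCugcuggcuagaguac

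The long domains held 716 Mb, which is 29.3% of the sequence in domains, although they are 8.58% of the domains. Their median length was 2125 kb (95% interval 2000 to 2225), against 1175 kb (1150 to 1175) in the 359 domains of 1000 to under 1500 kb and 475 kb (450 to 475) in all 3195 other domains. Of the 300, 173 were 2000 kb or longer, 55 were 3000 kb or longer, 19 were 4000 kb or longer and 5 were 5000 kb or longer. At the threshold, 9 domains measured 1500 kb and 6 measured 1475 kb. Just inside it lay, for example, the domain of Elavl2 on chromosome 4 with 2 protein-coding genes and a domain on chromosome 7 with 20, among them Sbf2. Just outside it lay the domain of Bnc2 on chromosome 4 with 3 genes, a domain on chromosome 11 with 58, among them Tbcd, and a domain on chromosome 7 with none.

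Every chromosome examined, 1 to 19 and X, held at least 2 long domains. Chromosome X held 24, which made up 46.8% of its domain sequence. Chromosomes 14 and 12 followed with 42.5% and 41.3%, and chromosomes 11 and 19 had the lowest shares, 17.7% and 9.11%. The gene density of the long domains differed between chromosomes as well. Pooled over each chromosome's long domains it was 10.5 protein-coding genes per Mb on chromosome 7, which holds receptor arrays, and 0.553 per Mb on chromosome 16.

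Protein-coding genes were sparse in most long domains. The median density was 1.04 genes per Mb (0.899 to 1.19), against 2.76 (2.03 to 3.45) in domains of 1000 to under 1500 kb and 7.27 (6.90 to 8) in all other domains. A long domain held a median of 2 genes (2 to 3), and an other domain held 3 (3 to 3) in a far shorter stretch. Pooled over all bases, the density was 3.41 genes per Mb in long domains, 7.41 in domains of 1000 to under 1500 kb and 10.0 in all other domains. The pooled density of all other domains was thus 2.93 times that of the long domains. A few long domains with large arrays count more in the pooled value than in the median. Together they held 2446 of the 19750 protein-coding genes placed in domains, or 12.4%.

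**Figure D1:**
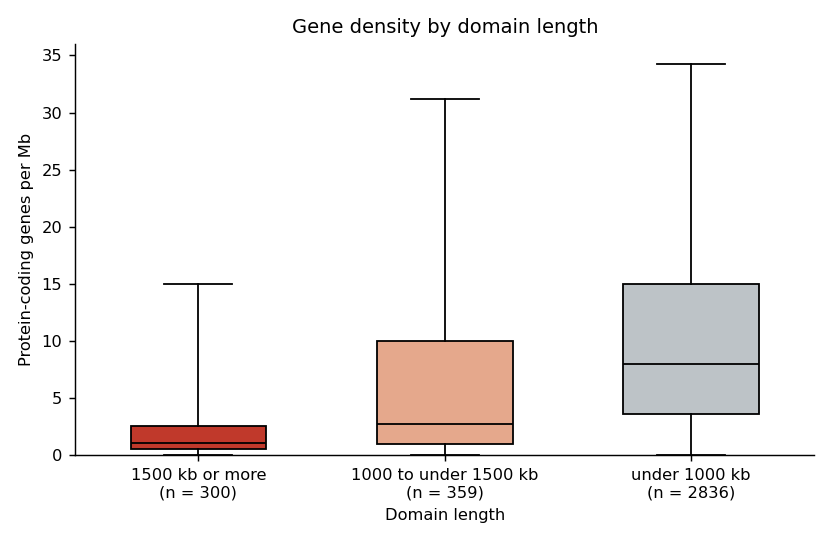
Protein-coding genes per Mb (vertical axis) in domains grouped by length. The line in each box is the median, the box spans the 25th to 75th percentile and the whiskers the 5th to 95th, and the box of the long domains lies lowest, with its middle part between 0.525 and 2.53 genes per Mb, against 3.64 to 15 in domains under 1000 kb.

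Density did not run evenly with length among the 300. The median was 1.29 genes per Mb (1.14 to 1.62) in the 127 domains of 1500 to under 2000 kb, 0.870 (0.762 to 1.08) in the 118 of 2000 to under 3000 kb and 0.615 (0.32 to 0.909) in the 36 of 3000 to under 4000 kb. In the 19 domains of 4000 kb and over it was 1.26, with a wide interval of 0.415 to 4.25. Across the 300 domains, Spearman's rho of length with gene count was 0.0139 and with pseudogene count 0.405, as a description over domains that share 1 map and 1 annotation.

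Pseudogenes were less sparse. Long domains held 4.17 pseudogenes per Mb pooled over their bases, against 3.93 per Mb in the other domains, but the median per domain was 2.58 per Mb (2.46 to 2.77) in long domains, against 3.08 (2.86 to 3.08) in the other domains. The pooled value was 9.91 per Mb in long domains with 15 or more genes, 2.66 in those with 2 to 4 and 2.485 in those with 1. Genes of long noncoding RNAs (lncRNAs) were at 2.24 per Mb (pooled), against 5.94 in the other domains. Pseudogenes, copies that no longer encode a working protein, outnumbered protein-coding genes in 208 of the 300 long domains (69.3%, 63.9 to 74.3), against 37.3% (32.5 to 42.4) of domains of 1000 to under 1500 kb and 18.1% (16.9 to 19.5) of all other domains. The long domains held 29.9% (28.9 to 30.8) of all placed pseudogenes, close to their share of sequence, but 13.5% (12.9 to 14.1) of lncRNA genes and 5.17% (3.30 to 8.03) of transfer RNA genes. Unsequenced and poorly mappable bases were not counted, so their part in the length of these domains was not tested.

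Bodies of protein-coding genes covered a median of 18.6% (15.1 to 20.5) of a long domain, against 53.0% (51.5 to 54.5) of an other domain. They covered under 10% in 102 of the long domains and over 50% in 42. The longest stretch without a protein-coding gene body had a median of 1196 kb (1063 to 1327) in long domains, against 428 kb (359 to 498) in domains of 1000 to under 1500 kb and 107 kb (102 to 112) in all other domains. Because such a stretch cannot exceed its domain, its share of the domain is given too. The median share was 54.8% (49.3 to 60.8) in long domains, 36.6% (30.3 to 41.7) in domains of 1000 to under 1500 kb and 25.6% (24.6 to 26.6) in all other domains. A stretch of 1000 kb or more without a gene occurred in 175 long domains (58.3%, 52.7 to 63.8). The share was 13.9% (10.7 to 17.9) in domains of 1000 to under 1500 kb and 1.6% in all other domains. A domain shorter than 1000 kb cannot hold such a stretch.

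By gene count, 24 long domains held no protein-coding gene, 77 held exactly 1, 119 held 2 to 4, 34 held 5 to 14 and 46 held 15 or more. The share with fewer than 5 genes was 73.3% (68.1 to 78.0), against 57.1% (51.9 to 62.1) of domains of 1000 to under 1500 kb and 64.3% (62.6 to 65.9) of all other domains, which are shorter. The share with 15 or more was 15.3% (11.7 to 19.8), against 19.2% (15.5 to 23.6) and 8.17% (7.27 to 9.17).

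**Figure D2:**
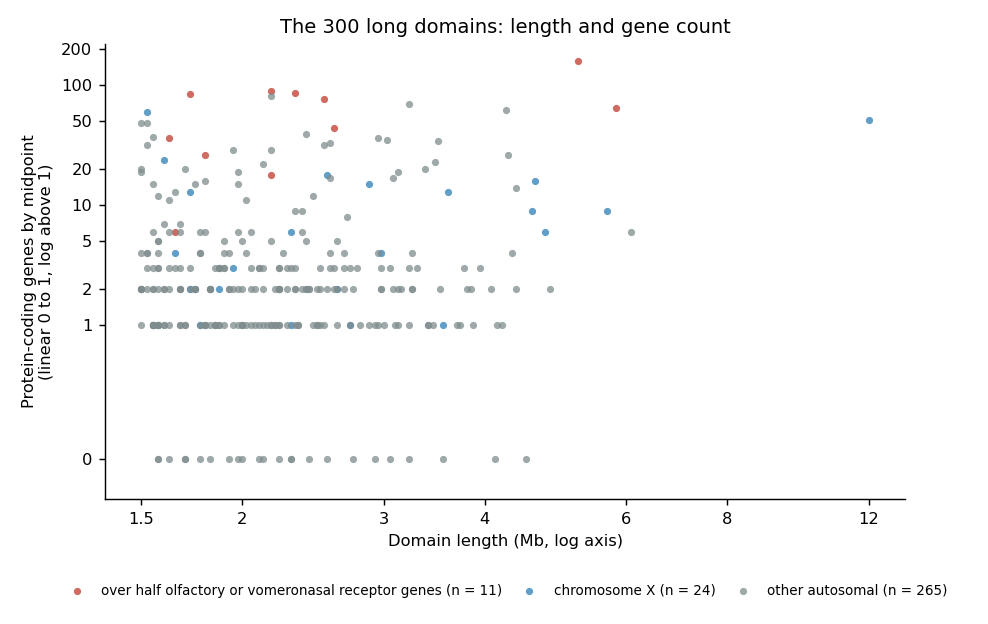
Each point is 1 of the 300 long domains, with its length in Mb on a log axis and its number of protein-coding genes by midpoint on an axis that is linear from 0 to 1 and log above. The 220 domains with fewer than 5 genes fill the lower part of the plot, the 11 domains of mostly receptor genes lie between 6 and 160 genes, and the 12 Mb domain of chromosome X stands far to the right with 51.

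The 15 longest domains were of mixed kinds, with 5 on chromosome X and 4 on chromosome 1. Of these 15, 4 held fewer than 5 genes and 6 held 15 or more. The longest, chrX:23825001-35825000, measured 12 Mb and held 51 protein-coding genes and 54 pseudogenes. Its named genes include Slx, a testis-expressed gene present in many copies, and several members of the Btbd35f family, and 21 of its genes are on the list of X-linked ampliconic and testis genes. The second, chr1:97700001-103775000 (6.075 Mb), held 6 genes, among them Cntnap5b, a neuronal adhesion gene of 718 kb, and Pam, which amidates neuropeptides. Its longest stretch without a gene body was 3284 kb. The domains chr7:6975001-12800000 (5.825 Mb, 64 genes) and chr7:19150001-24375000 (5.225 Mb, 160 genes) held 47 and 86 receptor genes.

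The next domains by length show how unlike in content long domains can be. On chromosome X, chrX:114600001-120275000 (5.675 Mb) held 9 genes, among them Tgif2lx1 and Tgif2lx2, and their bodies covered 0.667% of it. The domain chr1:25875001-30700000 (4.825 Mb) held 2 genes, and bodies covered 0.203%. In contrast, chrX:42550001-47300000 (4.75 Mb) had 18.8% of its bases under genes, with Tenm1, a teneurin adhesion gene of 901 kb, as its longest. Further down, chr13:85200001-89525000 (4.325 Mb) held Edil3, Rasa1, Ccnh and Cox7c, and chr1:139425001-143800000 (4.375 Mb) held 14 genes, among them the potassium channel gene Kcnt2.

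Long domains without a protein-coding gene by midpoint made up 57.8 Mb, with a median length of 2175 kb (1825 to 2750). In 15 of the 24 no protein-coding gene body reached in at all, and in 9 one did. Each of the 24 held a pseudogene and 23 held a lncRNA gene, while 3 held a microRNA gene. Among all 300 long domains, 295 held a pseudogene, 276 a lncRNA gene and 60 a microRNA gene. The longest lay on chromosome 18 and measured 4.5 Mb, with 10 pseudogenes and 15 lncRNA genes. It was followed by chr14:80275001-84400000 (4.125 Mb, 7 pseudogenes and 5 lncRNA genes) and chr5:54150001-57700000 (3.55 Mb, 10 pseudogenes and 3 lncRNA genes), neither with a coding base. Of these 24, 13 bordered another long domain.

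Where a long domain held a single protein-coding gene, that gene was often large. The 77 single genes had a median length of 171 kb (107 to 313), against 135 kb (122 to 152) for the 687 single genes of other domains, a difference within the overlap of the 2 intervals. Of the 77, 35 were 200 kb or longer (45.5%), against 241 of the 687 (35.1%). In long domains 20 single genes were shorter than 10 kb, and 61 lay wholly inside their domain. Lrrc4c measured 1314 kb and covered 31.3% of its 4.2 Mb domain. Nova1 measured 122 kb and covered 2.93% of its domain, and Luzp2 measured 434 kb and covered 11.6%. Small single genes occurred as well, such as G6pd2, a copy of the glucose-6-phosphate dehydrogenase gene, with 1.64 kb in a domain of 3.7 Mb on chromosome 5.

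Over all genes of long domains the median gene length was 9.66 kb (8.66 to 10.8), against 18.8 kb (18.3 to 19.3) in other domains. The value combines 2 kinds of domain. Genes in long domains with fewer than 5 genes had a median of 97.7 kb (75.7 to 117), and genes in long domains with 15 or more had 6.02 kb (5.45 to 6.60).

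Among genes of 200 kb or more, the share in long domains was higher at each larger cutoff. Long domains held 18.4% (16.1 to 21.0) of genes of 200 kb or more, 34.7% (28.7 to 41.2) of genes of 500 kb or more and 57.9% (45.0 to 69.8) of the 57 genes of 1000 kb or more, beside 12.4% of all protein-coding genes. A domain that contains a whole gene is at least as long as the gene by construction. Genes placed by midpoint need not lie wholly inside, and the part of this constraint in the shares was not tested. Of the 33 genes of 1000 kb or more in long domains, 13 lay wholly inside.

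The 10 longest genes of long domains show both cases. Cntnap2, a neurexin-family adhesion gene of 2241 kb, lay wholly inside a domain of 3.075 Mb on chromosome 6, 10.1 kb from its left edge. The receptor tyrosine phosphatase gene Ptprd (2271 kb, chromosome 4), the adhesion gene Lsamp (2197 kb, chromosome 16), the lipoprotein receptor gene Lrp1b (2058 kb, chromosome 2) and Macrod2 (1998 kb, chromosome 2), which encodes a hydrolase of ADP-ribose marks, all crossed an edge of their domain. So did Csmd1 (1643 kb), Nrxn3 (1612 kb), the alpha-catenin gene Ctnna3 (1574 kb), the axon guidance receptor gene Robo2 (1556 kb) and the splicing regulator gene Rbfox1 (1528 kb). Lsamp is longer than the domain that holds its midpoint, which measured 2125 kb.

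Genes for contacts between neurons were placed in long domains at a higher share than protein-coding genes as a whole. Of 105 listed genes for synaptic adhesion and axon guidance, 37 lay in long domains (35.2%, 26.8 to 44.7), spread over 36 of them. The longest were Ptprd, Cntnap2, Lsamp, Nrxn3 and Robo2. Of 33 cadherins and protocadherins outside the protocadherin clusters, calcium-dependent adhesion proteins, 14 lay in long domains (42.4%, 27.2 to 59.2), in 13 of them. The longest were Cdh12 (1150 kb), Cdh18 (929 kb), Pcdh11x (620 kb), Cdh8 (393 kb) and Cdh10 (197 kb). Of 43 receptor genes for the transmitters glutamate and GABA, 10 lay in long domains (23.3%, 13.1 to 37.7), among them Grm7 (922 kb), Grid1 (763 kb), Grik2 (697 kb) and Gria4 (378 kb). Genes of at least 1 of these 3 lists lay in 58 long domains, of which 48 held fewer than 5 genes and 23 held no other protein-coding gene. Of all 300 long domains, 220 held fewer than 5 genes (73.3%) and 77 held exactly 1 (25.7%). The share that gene length alone would give these lists was not tested.

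By contrast, 4 of 90 potassium channel genes lay in long domains (4.44%, 1.74 to 10.9), namely Kcnd2, Kcnt2, Kcnn3 and Kcnh3. None of the 56 clustered protocadherin genes did. The Wilson interval for 0 of 56 ends at 6.42%, but it takes neighbouring genes of a cluster as separate draws.

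**Figure D3:**
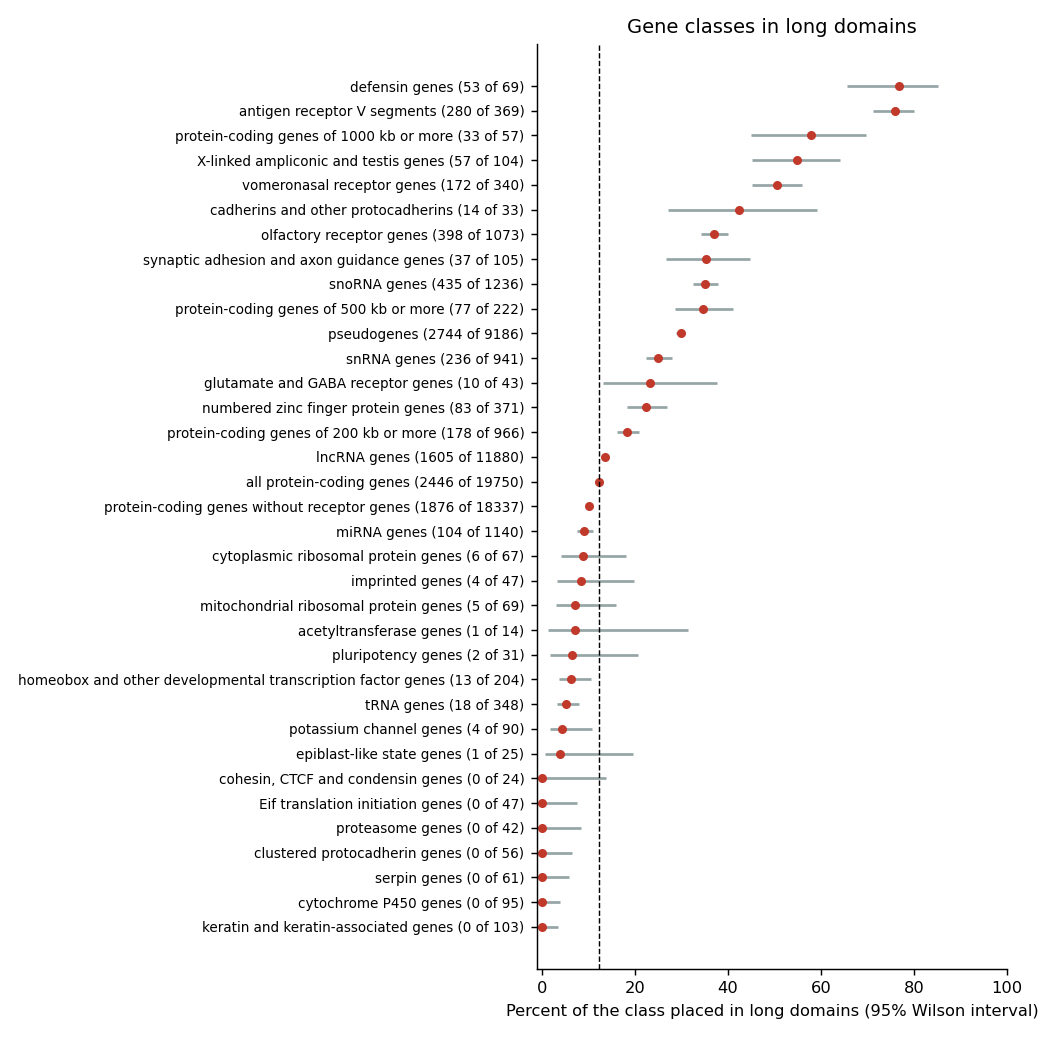
Percent of the placed genes of each class or list that lie in long domains (points), with 95% Wilson intervals (lines), and beside each name the number in long domains and in any domain. The dashed line marks all protein-coding genes at 12.4%, and the lists run from 76.8% for defensin genes to 0 for 7 lists.

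Several tandem gene families lay in long domains with 15 or more genes. Olfactory receptor genes, which sensory neurons of the nose use to detect odorants, had 398 of 1073 placed genes in long domains (37.1%, 34.3 to 40.0), within 10 domains. The domain chr2:85700001-87425000 (1.725 Mb) held 84 protein-coding genes, all of them olfactory receptors, and was the densest of all long domains at 48.7 genes per Mb. Among the other olfactory receptor domains were chr9:37975001-40150000 (2.175 Mb) with 87 olfactory receptors among 90 genes, and chr2:88350001-90675000 (2.325 Mb) with 84 among 86.

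Vomeronasal receptor genes, which detect pheromones, had 172 of 340 in long domains (50.6%, 45.3 to 55.9), within 8 domains. Of these, 86 and 47 lay in the domains of 5.225 and 5.825 Mb on chromosome 7 already described, and 15 in chr17:17925001-20100000 (2.175 Mb). Defensin genes, which encode antimicrobial peptides, had 53 of 69 in a single domain, chr8:18950001-22175000 (3.225 Mb), among 70 protein-coding genes that include Atp7b, which encodes a copper transporter. Genes named Zfp with a number had 83 of 371 in long domains (22.4%, 18.4 to 26.9), and X-linked ampliconic and testis genes 57 of 104 (54.8%, 45.2 to 64.0). The latter list was taken by symbol and includes some autosomal genes. Long domains made up 46.8% of the domain sequence of chromosome X, and the share of all its genes in them was not computed. Among the Zfp genes, 18 lay in chr13:65150001-67550000 (2.4 Mb).

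Other arrays were added to the description after their values had been seen. All 22 major urinary protein genes, whose products carry pheromones in urine, lay in 1 domain of 2.575 Mb on chromosome 4, and all 11 Skint genes, of which Skint1 is known for selecting skin T cells, lay in 1 of 2.45 Mb on the same chromosome. All 35 secretoglobin genes lay in a domain of 2.95 Mb on chromosome 7. All 25 prolactin family genes, placental and pituitary hormones, lay in 2 domains of chromosome 13, with 22 of them in 1 of 4.275 Mb that also holds Cdkal1. Of 26 killer-cell lectin-like receptor genes, used by natural killer cells, 20 lay in a domain of 1.95 Mb on chromosome 6. Shares were lower for S100 genes, calcium-binding proteins (11 of 16), exocrine gland secreted peptides (8 of 15) and Prame family genes (19 of 46).

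Tandem families were not always in long domains. None of the 103 keratin and keratin-associated genes, 95 cytochrome P450 genes and 61 serpin genes was placed in one. The Wilson intervals end at 3.60%, 3.89% and 5.92%, but they take neighbouring genes as separate draws. For the P450 genes the 0 depends on the threshold, since 28.4% were placed in domains of at least 1250 kb. The share of all protein-coding genes in such domains was not computed.

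V segments, the gene pieces from which lymphocytes assemble antigen receptors, were found mainly in a few long domains. They are annotated as a type of their own and were not counted as protein-coding genes in any value above. Of 369, 280 (75.9%, 71.3 to 80.0) lay in 3 long domains. All 114 Trav segments of the T cell receptor alpha locus and 3 of 5 Trdv segments lay in chr14:52375001-54025000 (1.65 Mb). Of 119 Ighv segments of the immunoglobulin heavy chain, 100 lay in chr12:113925001-116025000 (2.1 Mb), which held no protein-coding gene. Of 101 Igkv segments, 63 lay in chr6:67350001-69775000 (2.425 Mb). None of 19 Trbv, 7 Trgv and 3 Iglv segments lay in a long domain.

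**Figure D4:**
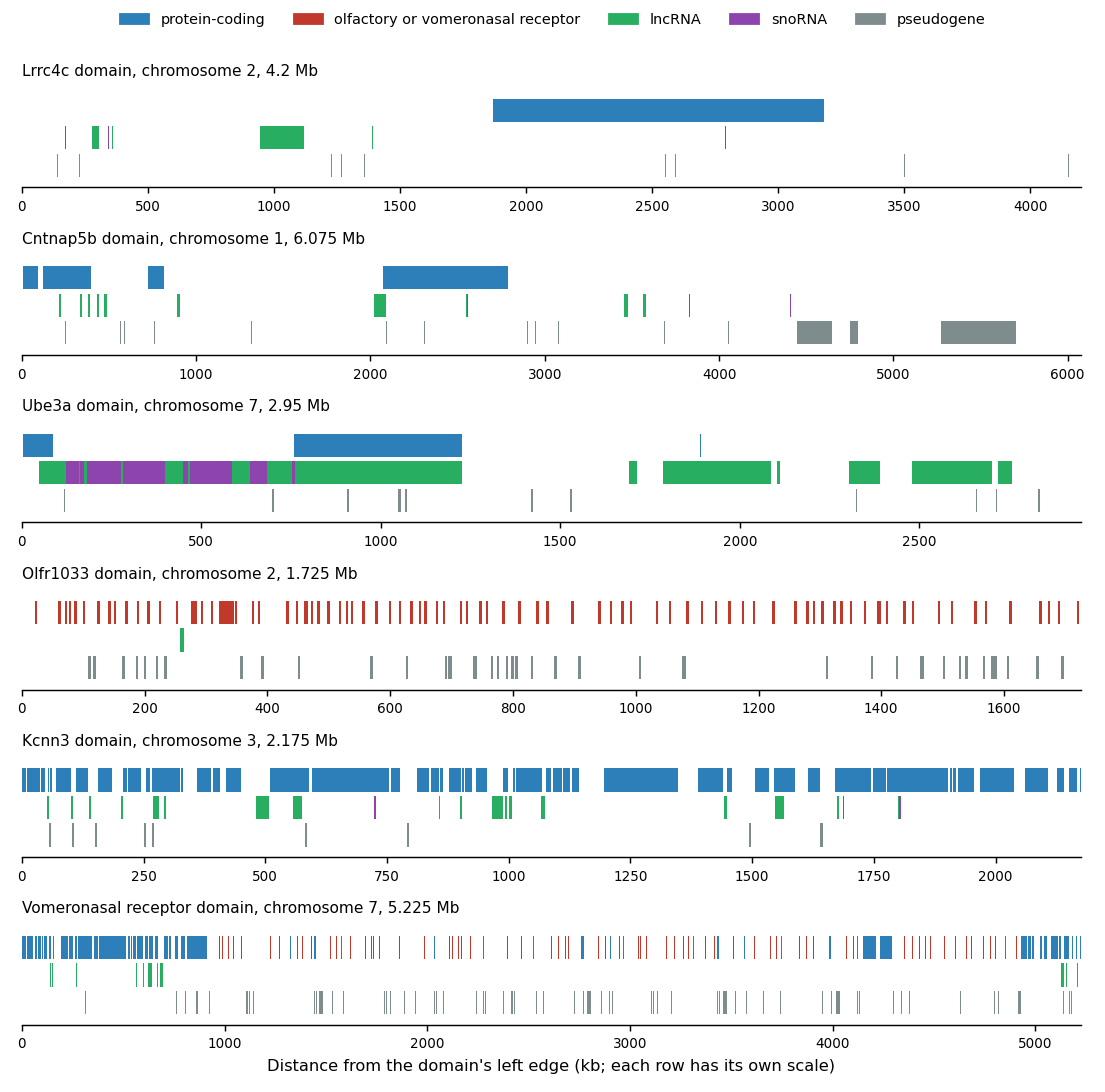
Genes along 6 long domains, drawn from each domain's left edge in kb, each row on its own scale and each gene at least 4 kb wide. Lrrc4c and Cntnap5b lie in stretches with few other protein-coding genes, the Olfr1033 and vomeronasal receptor domains are filled with short genes and pseudogenes, and the Kcnn3 domain is covered by genes for 70.0% of its length.

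Some long domains were dense without a majority of receptor genes. In the 36 domains with 15 or more genes of which at most 50% were receptors, the median density was 11.7 genes per Mb (8.57 to 13.3), and the median longest stretch without a gene was 283 kb (196 to 415). The domain chr3:88325001-90500000 (2.175 Mb) held 81 genes at 37.2 per Mb, among them Kcnn3, a calcium-activated potassium channel gene, and Ash1l, a histone methyltransferase gene. The domain chr15:98500001-100000000, of exactly 1500 kb, held 48 genes at 32 per Mb, among them the histone methyltransferase gene Kmt2d. The domain chr17:46175001-47700000 (1.525 Mb) held 48 genes, among them Ccnd3, which encodes cyclin D3.

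Lists of genes that most cells use had lower shares in long domains than all protein-coding genes. Of 67 cytoplasmic ribosomal protein genes 6 were (8.96%, 4.17 to 18.2), among them Rpl15 and Rps27, and of 69 mitochondrial ones 5 were (7.25%, 3.13 to 15.9). No gene of the 42 proteasome and 47 Eif translation initiation genes was placed in one, which allows up to 8.38% and 7.56%. All these intervals but those of the 2 ribosomal lists end below the 12.4% of all protein-coding genes.

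The cohesin, acetyltransferase, pluripotency and epiblast-like lists, tied to the study's cells and agents, were small. Their intervals held the 12.4% of all protein-coding genes. None of 24 cohesin, CTCF and condensin genes was in a long domain, which allows up to 13.8%, and of 14 acetyltransferase genes Naa10 was (7.14%, 1.27 to 31.5), which acetylates protein N-termini. Of 31 pluripotency genes there were 2 (6.45%, 1.79 to 20.7). Zfp42, a marker of naive ESCs, shared the 1.9 Mb domain chr8:41450001-43350000 with 2 other genes. Tcl1, a coactivator of the kinase AKT, lay in chr12:105025001-108150000 (3.125 Mb), which holds all 6 genes of the Tcl1 family. Of 25 epiblast-like state genes T, the transcription factor Brachyury, was in one (4%, 0.710 to 19.5), chr17:6075001-8600000 (2.525 Mb), with 32 genes. The list of homeobox and other developmental transcription factor genes was larger, with 13 of 204 in long domains (6.37%, 3.76 to 10.6). That interval ends below the 12.4%. The longest were Zfhx3 (682 kb), Foxp2 (541 kb), Zfhx4 (198 kb), Zeb2 (134 kb) and Satb1 (97.1 kb).

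Imprinted genes, expressed from 1 parental copy, were represented by 4 of 47, all on chromosome 7. The domain chr7:59225001-62175000 (2.95 Mb) held Snrpn, which encodes a splicing protein, and Ube3a, a ubiquitin ligase gene silenced on the paternal copy in neurons. Ube3a lay 3.75 kb from the domain's nearer edge. The Ube3a domain also held more small nucleolar RNA genes and more microRNA genes than any other long domain. It held 206 of the 435 small nucleolar RNA (snoRNA) genes of long domains, which guide chemical changes of other RNAs and are repeated copies here, and the 13 Mir344 genes whose sequences are shown above. The 435 are 35.2% (32.6 to 37.9) of all placed snoRNA genes. MicroRNA genes as a class were less represented, with 104 of 1140 (9.12%, 7.59 to 10.9) in 60 long domains.

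Within long domains, gene density was highest near the edges. Density was 5.83 protein-coding genes per Mb in the outermost 50 kb and 2.19 per Mb at 1000 to 1500 kb from the nearer edge, where 167 domains reach. Beyond 1500 kb it was 3.84 per Mb over 54 domains, of which the receptor arrays made up a part. Without receptor genes it was 1.69 per Mb at 1000 to 1500 kb and 2.57 beyond, so it was higher beyond 1500 kb there too. Other domains showed the same order at higher levels, with 12.9 genes per Mb in the outermost 50 kb and 6.46 at 400 to 750 kb. At 400 to 750 kb the long domains had 3.11 genes per Mb.

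**Figure D5:**
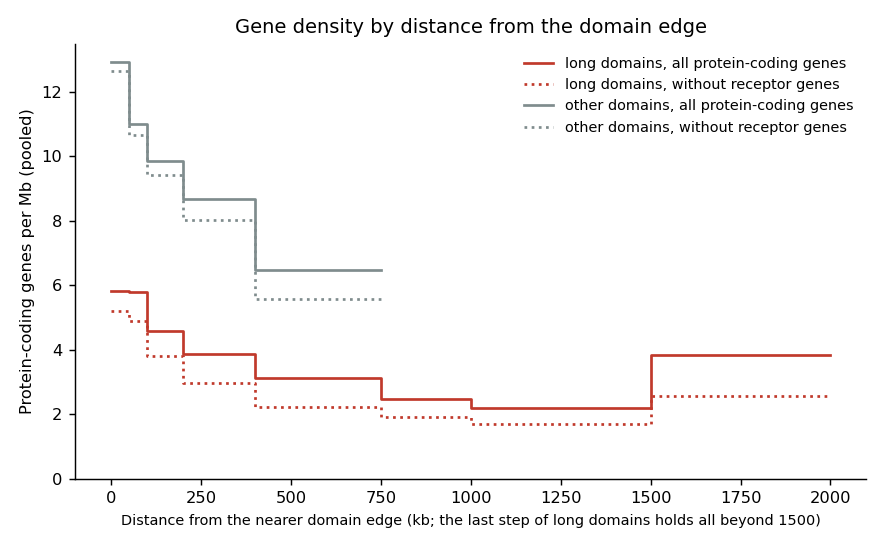
Pooled protein-coding genes per Mb by distance from the nearer domain edge in kb, for long domains (red) and other domains (grey), with all genes (solid) and without olfactory and vomeronasal receptor genes (dotted). In long domains the density is 5.83 genes per Mb in the outermost 50 kb, 2.19 at 1000 to 1500 kb and 3.84 beyond that, and in other domains it is 12.9 in the outermost 50 kb and 6.46 at 400 to 750 kb.

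Boundaries next to long domains had fewer gene ends. Of the 553 such boundaries, 262 (47.4%, 43.3 to 51.5) contained the end of a protein-coding gene or lay within 10 kb of one, against 67.5% (65.8 to 69.2) of the 2962 other boundaries. For the 47 boundaries with a long domain on both sides the share was 34% (22.2 to 48.3). An annotated start was within 10 kb of 30.3% (26.5 to 34.3) of the boundaries next to long domains, against 45.2% (43.3 to 47) of the others, leaving out chromosome 18, for which no promoter windows were used. The share of boundaries lying wholly inside a gene was 19.9% (16.8 to 23.4) next to long domains, against 22.5% (21.0 to 24.0) elsewhere, with overlapping intervals.

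The density of genes around a boundary was not held equal in these comparisons, so its part in them was not tested. Among the 15 longest domains, both flanking boundaries of chr7:19150001-24375000 touched genes, Fbxo46, Qpctl and Snrpd2 on the left and Kcnn4 and Smg9 on the right. Neither flanking boundary of the 4.825 Mb domain of chromosome 1 had a gene end within 10 kb, nor had those of the 4.575 Mb domain chrX:122900001-127475000.

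Long domains often adjoined one another. In all, 86 of the 300 (28.7%, 23.8 to 34) had another long domain as a neighbour, against 14.8% (13.6 to 16.1) of other domains with a long neighbour. The neighbours of long domains had a median length of 575 kb (550 to 650), and those of other domains 500 kb (475 to 500). They formed 39 runs, of which 34 were pairs, 3 had 3 members, 1 had 4 and 1 had 5. The run of 5, chr15:12825001-23475000, covered 10.65 Mb with 8 protein-coding genes, of which Cdh6, Cdh9, Cdh10, Cdh12 and Cdh18 are cadherins and Drosha encodes the nuclear enzyme that starts microRNA processing. Each of its 5 domains held 1 of the cadherin genes. The run of 4, chr3:41625001-51150000, covered 9.525 Mb with 6 genes, among them Pcdh10 and Pcdh18.

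Chromosome X differed from the autosomes in what its long domains held. The 24 long domains of chromosome X had a median of 5 genes (2 to 13), against 2 (2 to 2) in the 276 on autosomes, and none was without a gene, which allows up to 13.8%, against 8.70% (5.91 to 12.6) on autosomes. Pseudogenes outnumbered genes in 22 of the 24 (91.7%, 74.2 to 97.7) and in 186 of the 276 (67.4%, 61.7 to 72.7). The pooled density of lncRNA genes was 0.889 per Mb on X and 2.40 per Mb on autosomes.

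Promoters of genes in long domains were poorer in CG dinucleotides than those elsewhere. Their most upstream annotated window held a median of 3 CG dinucleotides (3 to 4, n = 2006), against 15 (14 to 15, n = 13860) for genes in other domains, and their GC content was 47.3% (46.7 to 48) against 57.3% (57 to 57.7). Receptor genes had a median of 1 in long and in other domains alike. Without receptor genes the medians were 6 (6 to 7) in long domains and 16 (15 to 16) in other domains. The letters TATAAA occurred on either strand in 22.6% (20.8 to 24.5) of windows in long domains, against 12.5% (12 to 13.1) in other domains, and in 45.5% (41.1 to 49.9) of those of receptor genes in long domains.

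The count of CG dinucleotides also differed with the gene content of the long domain. It was 12 (9 to 14, n = 305) in domains with fewer than 5 genes and 5 (5 to 6, n = 1008) for non-receptor genes in domains with 15 or more. The single genes had a median of 9 (5 to 15, n = 59), against 19 (17 to 21, n = 511) for the single genes of other domains, and ranged from 0 for Cntn3 and Lingo2 to 41 for Ncam2, an adhesion gene. Genes that start inside a boundary had a median of 18 both next to long domains (15 to 20, n = 127) and at the other boundaries (18 to 19, n = 1089). The Zscan18, Zfp329 and Snrpd2 promoters printed above, with 18, 15 and 20, lie close to that median. Those of Lrrc4c and Luzp2, with 6 and 5, lie below the median of single genes, and that of Nova1, with 14, lies above it.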

How the data were processed

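Micro-C libraries were made from a RAD21-dTAG mouse ESC line in G1 and from EpiLCs, per the labels. Per the submitters' processing notes, BWA 0.7.17 and Juicer 1.22.01 were used with mm10. The deposited file used here lists coordinates of boundaries from the pooled DMSO-treated ESC libraries, without a score. How boundaries were called (program, window, threshold) is not given in the sources, and contact depth is unknown.

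Each of the 3515 intervals measured 25 kb. Domains lie between neighbouring boundaries, so sequence before the first and after the last boundary of a chromosome belongs to none. Gene positions were those of RefSeq for GRCm38.p6, the assembly also called mm10. Of these, 49209 were kept, 21521 of them protein-coding, and 345, of which 110 are protein-coding, were left out because their positions are counted along scaffolds. The gene table has no strand, so either end of a gene counted as a gene end within 10 kb of a boundary. Predicted-style symbols (Gm with a number, LOC, ending in Rik) were counted but not named. Promoter windows matched 17274 protein-coding genes, and mature sequences matched 94 of the 104 microRNA genes of long domains. TATAAA was searched on both strands.

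The members, gene lists and alternatives were chosen with earlier results of these data known. Domains were named as the 15 longest, those nearest the threshold, the densest and sparsest, those without genes, and up to 3 per list. From each list up to 5 genes were named, longest first, with all pluripotency, epiblast-like, cohesin and acetyltransferase genes. The domains of the Mir17 cluster, the V segments and Kmt2d, the runs, the promoter counts of single genes and the added families fall outside that rule and were chosen after their values were seen. Some genes that the rule would name are not reported here.

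Placement of genes was tested on simulated data, where 100% of 16776 genes fell in their domain. Scripts ran in Python 3.11.15 with scipy 1.17.1, numpy 2.4.6, pandas 2.3.3 and matplotlib 3.10.9.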

Additional observations from a re-analysis of the deposited data

How the results depend on the processing

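Of 303 values recomputed under 13 alternatives, 249 stayed within the 95% interval of the reported value (or, for counts, within 1.5 times it), and 54 moved. Shares of gene lists made up 184 of the 303 but only 18 of the 54. Some lists, such as keratin genes at 0 and defensin genes at 76.8%, had the same value under every alternative, so the tally overstates stability. Under every alternative run, long domains kept a lower median gene density, a lower share of boundaries with a gene end, a higher share with fewer than 5 and with 15 or more genes, a higher share with a long neighbour and a longer gene-free stretch than other domains. Those other domains are shorter, with a median of 475 kb. No alternative was run against domains of 1000 to under 1500 kb, where the share with 15 or more genes was 19.2%, against 15.3% in long domains. The cause was not tested for any value that moved, beyond the change of threshold, gene or domain set itself.

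A threshold of 2000 kb left 173 long domains. The share of domain sequence in long domains, 29.3% as reported, was 35.8% at 1250 kb, 20.4% at 2000 kb, 28.2% without domains over 5 Mb, 28.1% on autosomes, 28.8% without domains of mostly receptor genes and 29.6% with length from boundary centre to centre. The median density was 0.833 genes per Mb at 2000 kb, 1.215 with genes counted by any overlap and 0.782 with whole genes only. The share with 15 or more genes was 11.3% without predicted genes. The share of genes of 200 kb or more was 24.3% at 1250 kb, 11.5% at 2000 kb and 23.2% with whole genes only, and that of genes of 500 kb or more 34.7%. The share of flanking boundaries with a gene end was 34.9% inside the interval alone, 68.9% within 50 kb and 30.3% for annotated starts. The share next to another long domain was 22.5% at 2000 kb. The median gene-free stretch was 963 kb at 1250 kb and 1493 kb at 2000 kb.

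At 1250 kb, 3 lists instead of 7 had no gene in long domains, and the shares were 44.6% for olfactory receptors, 57.9% for vomeronasal receptors, 28.4% for cytochrome P450 genes and 11.3% for developmental transcription factors. At 2000 kb they were 24.3% for olfactory receptors, 43.8% for vomeronasal receptors, 31.7% for X-linked ampliconic genes, 26.7% for synaptic adhesion genes, 11.6% for transmitter receptors, 3.43% for developmental transcription factors, 2.99% for ribosomal protein genes of the cytoplasm, 1.45% for those of mitochondria and 0 for acetyltransferase genes. Without domains over 5 Mb, vomeronasal receptors were at 18.8% and X-linked ampliconic genes at 42.0%. On autosomes alone, X-linked ampliconic and acetyltransferase genes were at 0. Without domains of mostly receptor genes, olfactory receptors were at 2.56%. The share of all protein-coding genes was not recomputed under any alternative, so the 12.4% at 1500 kb is not a baseline for these values. With the richest window of each gene, an alternative added after seeing the data, promoters held a median of 4 CG dinucleotides in long and 16 in other domains.

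The limit on gap sequence was not run, because no genome sequence was used. No paired analysis was possible because the boundary list pools its libraries.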
